A study of Mus musculus with 56 samples.

Results

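The 32 genes described here encode enzymes of glycolysis and of the tricarboxylic acid cycle with its neighbouring steps. They were listed by symbol from what their enzymes do, with earlier results of these data known, and the gene IDs of all 32 were found among the 19072 genes of the deposited table. The glycolytic set has 15 genes (Gpi1, Pfkm, Pfkp, Aldoa, Tpi1, Gapdh, Pgk1, Pgam1, Pgam2, Eno1, Eno3, Pkm, Gpd1, Gpd2 and Fbp2). The mitochondrial set has 17 (Cs, Idh2, Idh3a, Idh3b, Idh3g, Ogdh, Dlst, Dld, Suclg1, Suclg2, Sucla2, Fh1, Mdh1, Mdh2, Got1, Got2 and Pcx), of which Mdh1 and Got1 encode cytosolic partners of mitochondrial enzymes.

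Glycolysis splits glucose into pyruvate in the cytosol and supplies ATP quickly, and in fast muscle fibres its enzymes are among the most abundant proteins. The tricarboxylic acid cycle oxidises acetyl groups in mitochondria and feeds the respiratory chain, and slow fibres depend on it more. Glycerol-3-phosphate and malate-aspartate shuttles, here Gpd1, Gpd2, Mdh1, Mdh2, Got1 and Got2, carry reducing equivalents between both compartments.

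RNA came from gastrocnemius, a calf muscle of mixed fibre type, of female C57BL/6J mice. After 7 days of free feeding the mice had food for 7 days in the light phase only (daytime-restricted feeding, DRF) or in the dark phase only (nighttime-restricted feeding, NRF). DRF is set against NRF, since mice normally eat in the dark. Both regimens shared a cycle of 12 h light and 12 h dark, and the mice were 9 weeks old at collection. Each regimen was sampled every 4 h between ZT0 and ZT24, where ZT (zeitgeber time) counts hours from lights on, with 4 libraries in each of the 14 groups. The 56 libraries held 28173234 to 36183625 recovered reads, and the 10 most abundant genes took 19.5% to 32.8% of them. Genes that define skeletal muscle were very abundant in both regimens, as with Acta1 at 46842 CPM in DRF and 38367 CPM in NRF. CPM are recovered reads per 1000000 of the authors' library size, and changes are differences of log2(CPM + 1).

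Per kilobase of the gene length behind the deposited values, the glycolytic genes spanned a far wider range of levels than the mitochondrial ones. That length, 2911 bases for Aldoa and 4133 for Gapdh, need not be that of the transcript. Levels and ratios per length depend on it. Mean levels over all libraries were 0.703 to 6504 CPM per kilobase in the glycolytic set, with a median of 499, and 16.7 to 225 in the mitochondrial set, with a median of 124. Aldoa, which splits fructose bisphosphate, stood highest with 6504. Gapdh, which makes bisphosphoglycerate, had 3460, Eno3, the muscle enolase, had 3227, and Pgam2, the muscle phosphoglycerate mutase, had 2524. The glycolytic genes together took 38569 to 76522 CPM of a library in DRF and 35665 to 68083 CPM in NRF, and the mitochondrial genes 6241 to 10179 CPM in DRF and 5373 to 9019 CPM in NRF.

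Related enzymes differed in level by very different factors. Pfkm, the muscle phosphofructokinase, exceeded Pfkp, the platelet form, by a median of 1439 times per length in DRF and 1470 times in NRF (28 libraries each). The lengths used were 3340 bases for Pfkm and 13401 for Pfkp. Without them, the means in DRF were 3470 and 9.27 CPM, which is a smaller factor. Pgam2 exceeded Pgam1, the form of most other tissues, by 229 times in DRF and 194 times in NRF, and Eno3 exceeded Eno1, the widely expressed enolase, by 144 times in DRF and 155 times in NRF. The lengths used were 1739 bases for Eno3 and 5379 for Eno1, whose means in DRF were 5847 and 125 CPM. Gpd1, the cytosolic glycerol-3-phosphate dehydrogenase, exceeded its mitochondrial partner Gpd2 by 5.56 times in DRF and 4.94 times in NRF.

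Of the mitochondrial pairs, Sucla2 and Suclg2 lay farthest apart. The level of Mdh1, the cytosolic malate dehydrogenase, over that of the mitochondrial Mdh2 was 1.12 in DRF and 1.13 in NRF per length. For the aspartate aminotransferases Got1 (cytosolic) and Got2 (mitochondrial) the ratio was 1.27 in DRF and 1.24 in NRF. Sucla2, the ADP-forming subunit of succinyl-CoA ligase, exceeded Suclg2, the GDP-forming one, by 6.47 times in DRF and 6.34 times in NRF. The NADP-linked Idh2 stood at 0.860 times the level of Idh3a, a subunit of the NAD-linked enzyme, in DRF and at 0.779 times in NRF.

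**Figure D1:**
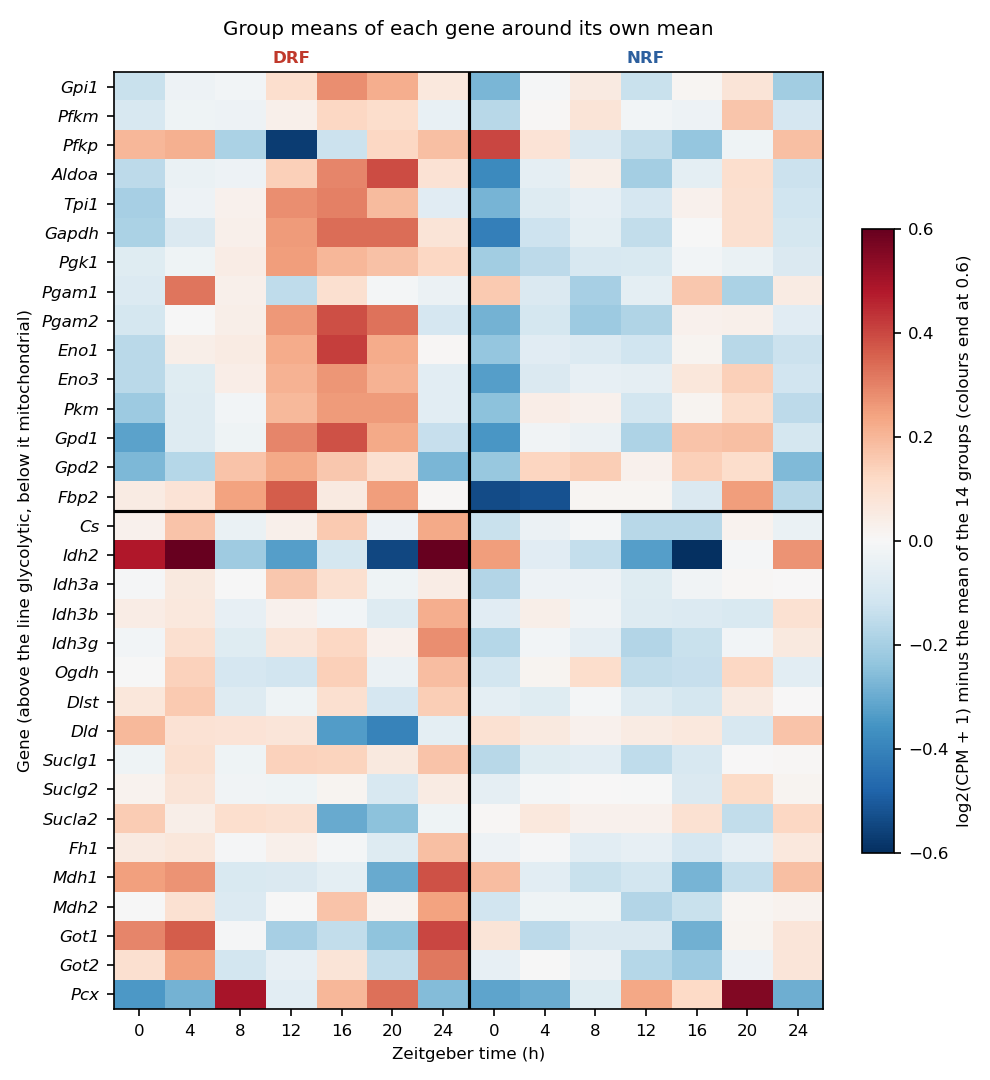
Mean log2(CPM + 1) of each of the 32 genes in the 14 groups, minus the gene's mean over the groups, with DRF in the left block and NRF in the right block and zeitgeber time in hours along each block (n = 4 libraries a group). In DRF most glycolytic genes are high from ZT12 to ZT20, while Dld and Sucla2 are low at ZT16 and ZT20.

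The first question was which of these enzymes had a daily rhythm under each feeding time. Under DRF most glycolytic transcripts peaked in the dark phase, when these mice had no food, and 3 mitochondrial ones peaked in the light phase. The DRF rhythm passed the test for 12 of 15 glycolytic genes and 3 of 17 mitochondrial genes, against 48.7% of the 12025 genes tested (limma F test on a 24 h cosine, Benjamini-Hochberg adjusted p under 0.05). Among the 1297 genes with a mean of at least 100 CPM, to which 28 of the 32 belong, the share was 56.4%. The fitted peak-to-trough difference of the 12 glycolytic genes was 0.27 to 0.67 on the log2 scale, and 11 of them peaked between ZT13.1 and ZT16.8.

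Eno1 (gene 13806, GRCm38.p6 chromosome 4, 150236708 to 150248879), whose enzyme makes phosphoenolpyruvate, had 155, 158, 153 and 144 CPM at ZT16 in DRF, against 107, 116, 106 and 135 CPM in NRF. At ZT0 it had 89.5, 108, 93.1 and 120 CPM in DRF, against 94.2, 96, 92.9 and 105 CPM in NRF. The regimens thus overlapped at ZT0 and did not overlap at ZT16, but the rhythm difference of Eno1 did not pass (limma adjusted p = 0.0629). The fitted curve of Eno1 had a peak-to-trough difference of 0.44 in DRF with the peak at ZT15.1 (limma adjusted p = 0.000102) and 0.11 in NRF (adjusted p = 0.590).

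Pgam2 (gene 56012, chromosome 11, 5801637 to 5803796) had 2493, 2641, 3347 and 2516 CPM at ZT16 in DRF, against 1816, 2297, 1969 and 2457 CPM in NRF. At ZT0 its values were 2023, 1950, 1605 and 2214 CPM in DRF, against 1878, 1456, 1787 and 1750 CPM in NRF. All 4 DRF libraries were above all 4 NRF libraries at ZT16, while the ranges overlapped at ZT0. Yet Pgam2 was not called in the test of ZT16 alone, and its rhythm difference did not pass (limma adjusted p = 0.203). The peak-to-trough difference was 0.51 in DRF (ZT15.3, limma adjusted p = 0.00143) and 0.22 in NRF (adjusted p = 0.458).

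The other glycolytic genes called in DRF were Gpi1 (0.35, ZT16.4), Aldoa (0.46, ZT16.8), Tpi1 (0.46, ZT14.6), Gapdh (0.50, ZT15.8), Pgk1 (0.27, ZT15.3), Eno3 (0.42, ZT15.0), Pkm (0.45, ZT15.4), Gpd1 (0.62, ZT14.8), Gpd2 (0.52, ZT13.1) and Pfkp, each given with its peak-to-trough log2 difference and peak time. Gpd1 had 1126, 858, 971 and 1051 CPM at ZT12 in DRF, against 578, 736, 663 and 934 CPM in NRF, with an overlap of 1 NRF library. Gpi1 interconverts hexose phosphates, Tpi1 the triose phosphates, Pgk1 yields the first ATP and Pkm the last. Pkm, for example, had 3997, 4167, 5416 and 5040 CPM at ZT16 in DRF, against 3371, 3886, 4141 and 4303 CPM in NRF, and both regimens overlapped. Aldoa lost the call without DRF ZT4 replicate 1 (adjusted p = 0.0590) or DRF ZT16 replicate 3 (0.0603), and Gpd2 without DRF ZT0 replicate 3 (0.0560) or DRF ZT24 replicate 1 (0.0532).

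The size of the glycolytic rhythm in DRF depended on scale. The authors' library size over the recovered total averaged 0.902 at ZT16 and 1.05 at ZT0 in DRF, and its part in the result was not tested. With quantile scaling 8 of the 12 glycolytic genes were called, and Gpi1 (0.21, limma adjusted p = 0.0521), Aldoa (0.10, 0.127), Gapdh (0.09, 0.452) and Pgk1 (0.20, 0.0601) were not. Scaled to the total of recovered reads, 11 were called and Pgk1 was not (0.08, adjusted p = 0.421), and the difference was 0.15 for Gpi1, 0.27 for Aldoa, 0.28 for Tpi1, 0.30 for Gapdh, 0.25 for Pkm, 0.25 for Eno1, 0.31 for Pgam2 and 0.23 for Eno3.

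Pfkp ran against the other glycolytic genes called in DRF, with its peak at ZT0.08 in DRF and ZT1.19 in NRF. Pgam1, which was not called, had a fitted DRF peak at ZT4.75 (limma adjusted p = 0.549). At ZT12 Pfkp had 4.75, 6.85, 5.45 and 6.66 CPM in DRF, against 8.59, 7.38, 11.3 and 6.30 CPM in NRF. At ZT0 it had 8.41, 10.5, 13.4 and 11.1 CPM in DRF, against 14.8, 12.8, 10.8 and 11.9 CPM in NRF. It was the 1 member called in NRF (peak-to-trough 0.49, limma adjusted p = 0.00276) and was called in DRF as well (0.67, adjusted p = 1.1e-05).

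The glycolytic genes without a DRF call were Pfkm, the main control point of glycolysis (0.19, limma adjusted p = 0.194), Pgam1 (0.16, 0.549) and Fbp2, the muscle fructose bisphosphatase, which runs that step in reverse (0.23, 0.420). Fbp2 had a larger fitted difference in NRF (0.52, adjusted p = 0.0634), where its 4 libraries had 64.6, 33.6, 58.5 and 40.7 CPM at ZT0 and 97.4, 74.6, 67.5 and 96.4 CPM at ZT20. Those times, with its lowest and highest NRF means, did not overlap. At ZT24 in NRF it had 59.0, 50.7, 65.5 and 74.9 CPM, which overlapped ZT20.

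Dld, Sucla2 and Got1, 3 of the 17 mitochondrial genes, passed the DRF test, and their peaks lay in the light phase. Dld (gene 13382, chromosome 12, 31331562 to 31351471) encodes the lipoamide dehydrogenase shared by the pyruvate and oxoglutarate dehydrogenase complexes. It had 182, 209, 144 and 170 CPM at ZT16 in DRF, against 267, 232, 219 and 210 CPM in NRF. The highest DRF library was just below the lowest NRF library, but Dld was not called at ZT16 alone. Its peak-to-trough difference was 0.52 in DRF with the peak at ZT5.68 (limma adjusted p = 0.00224) and 0.08 in NRF (adjusted p = 0.884).

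Sucla2 (gene 20916, chromosome 14, 73552786 to 73596144) had 303, 375, 293 and 356 CPM at ZT16 in DRF, against 453, 420, 444 and 417 CPM in NRF. The libraries of both regimens did not overlap at that time, but Sucla2 was not called at ZT16 alone. Its peak-to-trough difference was 0.39 in DRF (ZT5.70, limma adjusted p = 0.0208) and 0.09 in NRF (adjusted p = 0.884). The DRF call was lost without DRF ZT20 replicate 1 (adjusted p = 0.0725) or DRF ZT16 replicate 3 (0.0569).

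Got1 peaked at ZT2.71 in DRF, with a peak-to-trough difference of 0.66 (limma adjusted p = 0.0343), but its libraries were widely spread. At ZT20 it had 692, 238, 237 and 309 CPM in DRF, against 296, 506, 326 and 504 CPM in NRF. The call was lost in 9 of the 56 fits that leave out 1 library. For the other 14 mitochondrial genes the DRF peak-to-trough difference was not past the test, and it was largest for Idh2 (1.07, adjusted p = 0.0723). Scaled to the total of recovered reads, 7 mitochondrial genes were called in DRF, with Idh2, Idh3b, Fh1 and Mdh1 added, and with quantile scaling 4, with Cs added.

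**Figure D2:**
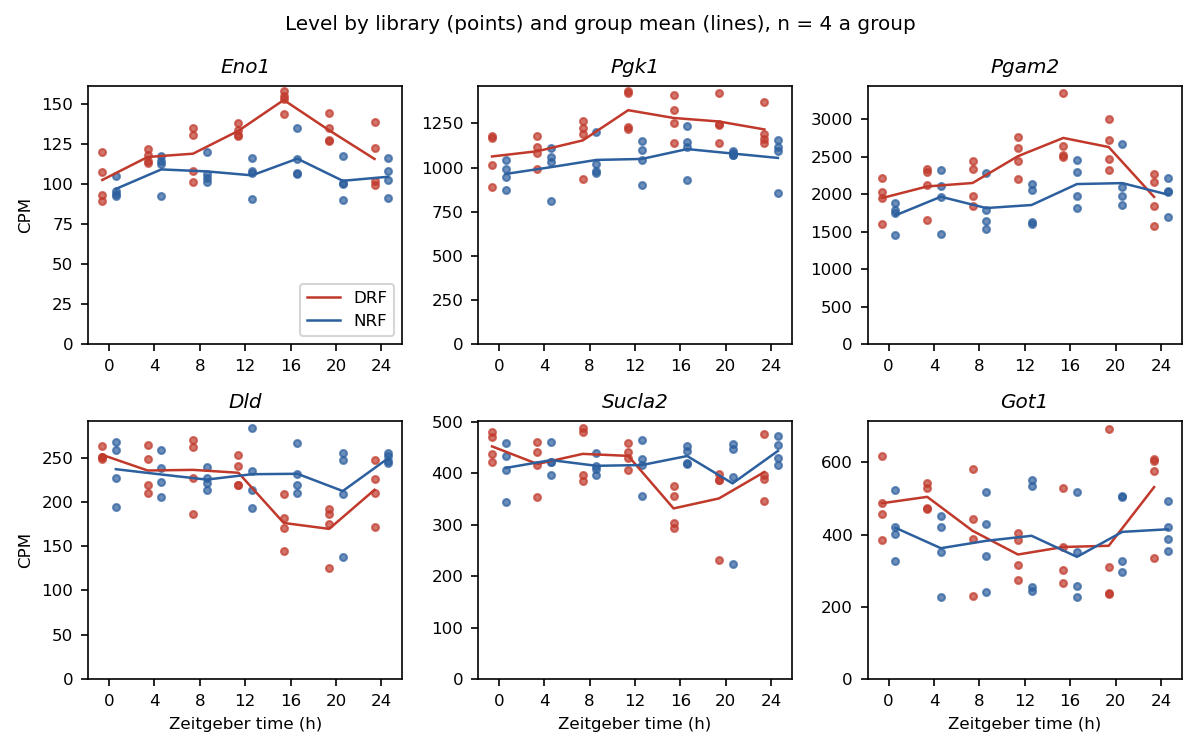
CPM by library (points) and group means (lines) of Eno1, Pgk1, Pgam2, Dld, Sucla2 and Got1 against zeitgeber time in hours, DRF drawn left of NRF at each time (n = 4 a group, axes from 0). The DRF line of Eno1 is above that of NRF at ZT12, ZT16 and ZT20, and the DRF lines of Dld and Sucla2 are below those of NRF at ZT16.

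In NRF the rhythm test passed for 1 of 15 glycolytic genes and 0 of 17 mitochondrial genes, against 15.1% of all genes tested, with 2 and 1 genes at an unadjusted p under 0.05, against 26.3% of all genes (limma). The test of the difference between both rhythms passed for 0 of 32, against 13.1% of all genes, so the count of 15 in DRF and 1 in NRF does not show that a gene's rhythm differed. At an unadjusted p under 0.05, which 28.7% of all genes reached, the difference held 1 glycolytic gene, Eno1 (adjusted p = 0.0629), and 1 mitochondrial gene, Dld (adjusted p = 0.154). Leaving out DRF ZT4 replicate 2 or 3, DRF ZT24 replicate 4, NRF ZT4 replicate 1, NRF ZT16 replicate 4 or NRF ZT20 replicate 4 brought Eno1 past the threshold (adjusted p 0.0218 to 0.0497), and leaving out NRF ZT20 replicate 4 did so for Dld (0.0221).

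As a description of the sets, the median peak-to-trough difference of the glycolytic genes was 0.45 in DRF and 0.18 in NRF, that of the mitochondrial genes 0.15 in DRF and 0.10 in NRF, and that of all genes tested 0.26 in DRF and 0.16 in NRF. It was larger in DRF for 13 of 15 glycolytic genes, 13 of 17 mitochondrial genes and 70.8% of all genes. The mean of the glycolytic genes around their own means followed a DRF curve of 0.31 with its peak at ZT15.4, and an NRF curve of 0.13 with its peak at ZT15.5. That of the mitochondrial genes had 0.18 at ZT2.93 in DRF and 0.10 at ZT0.79 in NRF. The glycolytic minus the mitochondrial mean thus had a fitted peak-to-trough difference of 0.49 in DRF, with the peak at ZT15.2, and of 0.22 in NRF, with the peak at ZT14.3.

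Libraries of the same group spread widely in these means. At ZT20 the glycolytic minus mitochondrial mean ran between −0.15 and 0.57 over the 4 libraries in DRF and between −0.26 and 0.25 in NRF. At ZT0 it ran between −0.49 and 0.03 in DRF and between −0.52 and 0.15 in NRF.

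**Figure D3:**
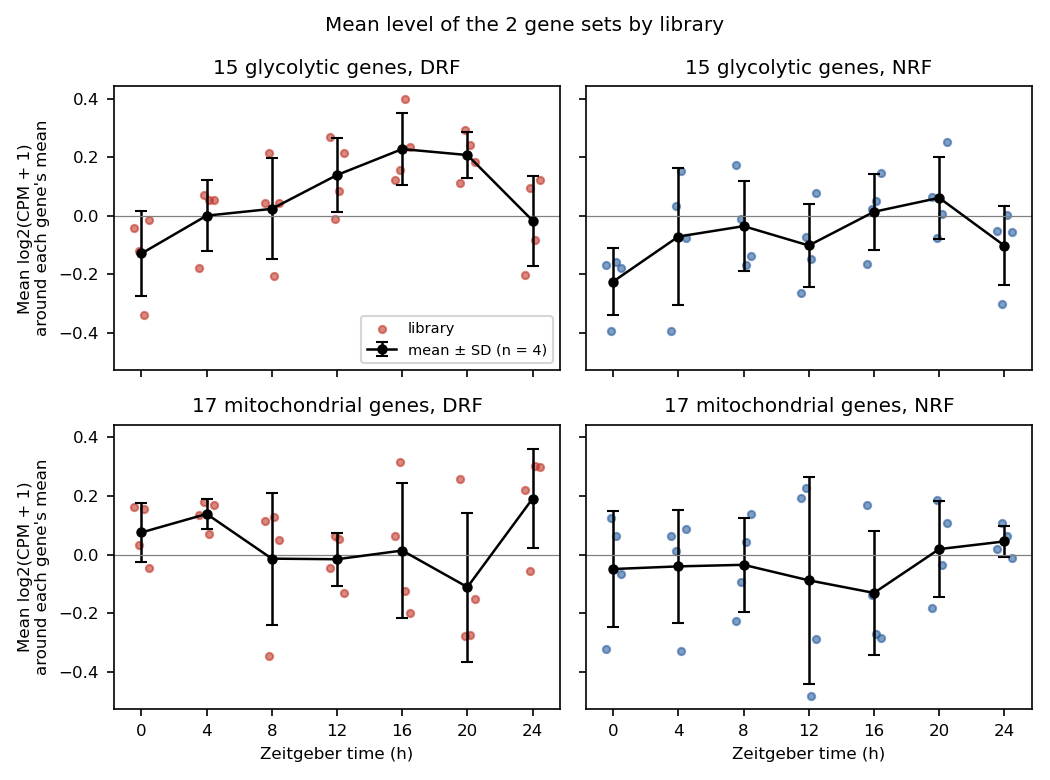
Mean over the 15 glycolytic genes (top) and the 17 mitochondrial genes (bottom) of log2(CPM + 1) minus each gene's own mean, by library (coloured points) with the group mean and SD (black, n = 4), DRF left and NRF right, against zeitgeber time in hours. The glycolytic mean in DRF is −0.13 at ZT0 and 0.23 at ZT16, while in NRF it is −0.22 and 0.01 at these times.

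Most fibre transcripts moved with these patterns. Of 9 fast fibre marker genes, 6 were called rhythmic in DRF. The mean of all 9 had a peak-to-trough difference of 0.37 with the peak at ZT15.6. Not called were Myh4 (ZT14.7, limma adjusted p = 0.0949), Atp2a1 (ZT16.7, 0.0710) and Myh1. Myh1 ran against the others, with a fitted peak at ZT3.07 (adjusted p = 0.124) and the largest difference of the 9, 0.99. Myh2, a fast oxidative fibre marker outside this list, had its fitted peak at ZT3.34 (adjusted p = 0.0607). The mean of 8 slow fibre marker genes peaked at ZT2.56 with a difference of 1.87, none of the 8 was called (lowest limma adjusted p = 0.0553), and its libraries ran between −4.68 and 1.65 in DRF and between −3.58 and 1.68 in NRF. In whole muscle, fewer cells of a type and less RNA per cell cannot be told apart. With both fibre means as covariates the DRF rhythm was called for 6 glycolytic genes (Pfkp, Aldoa, Tpi1, Eno1, Gpd1 and Gpd2) and for Dld and Sucla2. The fitted difference was then 0.17 for Aldoa, 0.16 for Tpi1, 0.19 for Gpd1, 0.26 for Gpd2, 0.32 for Eno1, 0.55 for Pfkp, 0.42 for Dld and 0.38 for Sucla2. The share of reads in the 10 most abundant genes moved likewise, with group means of 29.4% at ZT16 and 24.2% at ZT0 in DRF and 26.4% and 21.9% at these times in NRF; its part in the result was not tested.

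Within groups, too, the levels of most members followed the fibre transcripts from library to library. Over the 56 libraries, as deviations from group means, 13 of 17 mitochondrial genes rose and 1 (Pcx) fell with the slow fibre mean, while 12 of 15 glycolytic genes fell and 2 (Pfkp and Pgam1) rose with it (permutation within groups, 64 relations, Benjamini-Hochberg adjusted). With the fast fibre mean 13 glycolytic genes rose and 2 fell, and 2 mitochondrial genes rose and 5 fell. Only the 32 members were tested in this way, so no share over all genes stands beside these counts. Idh2 had r = 0.93 and rho = 0.94 with the slow fibre mean (permutation p = 1e-05 for each, the smallest that 100000 permutations can give, adjusted p = 2.3e-05), and r = 0.94 without the 2 libraries farthest from the median. Its 4 libraries at ZT20 had 526, 86.1, 98.4 and 158 CPM in DRF, against 110, 498, 193 and 303 CPM in NRF, so that a single group spanned most of the range of the whole study.

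Gpd2, which passes electrons of glycerol-3-phosphate to the respiratory chain in mitochondria, had r = −0.80 and rho = −0.83 (permutation p = 1e-05 for each, adjusted p = 2.3e-05), and −0.79 without the 2 farthest libraries. Eno1 had r = −0.21 and rho = −0.16 (permutation p = 0.165 and 0.291, adjusted p = 0.189 for r). Without the 8 libraries with a slow fibre mean under −2 (3 in DRF and 5 in NRF), r was 0.95 for Idh2 and −0.76 for Gpd2, but −0.16 for Pgam2, against −0.46 with all libraries.

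**Figure D4:**
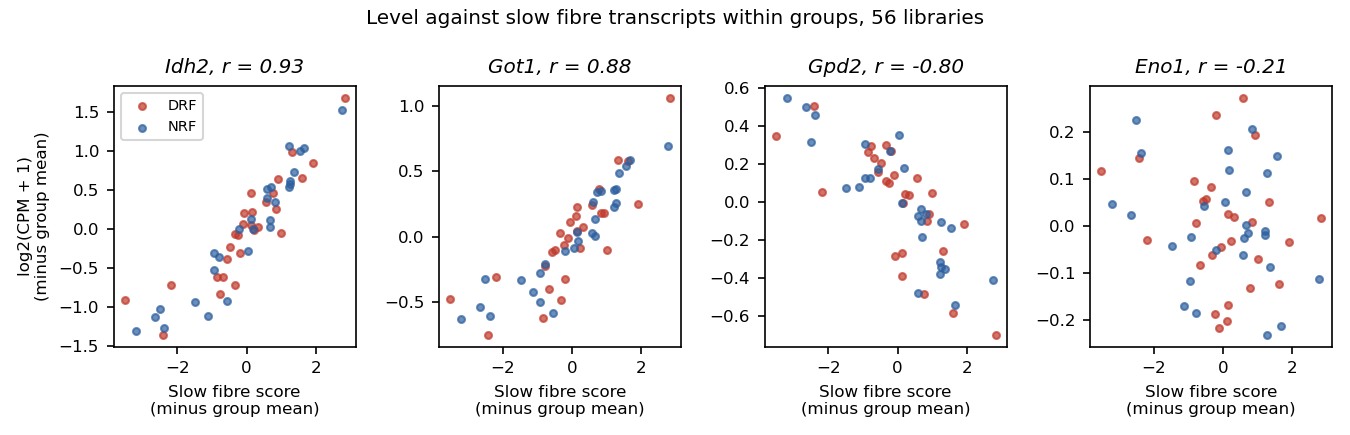
Deviation of log2(CPM + 1) from the group mean against the deviation of the slow fibre mean, for Idh2, Got1, Gpd2 and Eno1, with each point 1 of 56 libraries (red DRF, blue NRF). Idh2 and Got1 rise along the slow fibre mean (r = 0.93 and 0.88), Gpd2 falls along it (r = −0.80), and Eno1 shows r = −0.21.

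The next question was whether the level over the whole day differed between the regimens. It was higher in DRF for 8 of 15 glycolytic genes and 4 of 17 mitochondrial genes, and lower for 0 of 32, against 8.35% of all genes called higher and 7.53% called lower (limma test of the average over the day). Also at an unadjusted p under 0.05, 0 of 32 were lower, against 16.7% of all genes. Among genes with a mean of at least 100 CPM, 18.7% were called higher. The changes of the 12 were small, 0.13 to 0.28 on the log2 scale for the glycolytic genes and 0.09 to 0.16 for the mitochondrial ones, and each regimen's libraries overlapped over the day. The median difference was 0.13 over the glycolytic genes, 0.09 over the mitochondrial genes and −0.0014 over all genes tested.

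Eno1 averaged 125 CPM in DRF and 106 CPM in NRF, a difference of 0.24 ± 0.04 (log2, SE, limma adjusted p = 0.00019). Pgk1 (gene 18655, chromosome X, 106187100 to 106203699) averaged 1199 CPM in DRF and 1042 CPM in NRF, a difference of 0.20 ± 0.04 (adjusted p = 0.00237). At ZT12, for example, Pgk1 had 1421, 1231, 1216 and 1430 CPM in DRF, against 1044, 1099, 901 and 1150 CPM in NRF. Those libraries did not overlap, but Pgk1 was not called at ZT12 alone.

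Pgam2 averaged 2292 CPM in DRF and 1947 CPM in NRF, with a difference of 0.26 ± 0.06 (limma adjusted p = 0.00386). Eno1, Pgk1 and Pgam2 passed under each of the 17 other settings of this comparison and without any 1 library. Their partners Eno3 (0.12 ± 0.06, adjusted p = 0.141) and Pgam1 (0.08 ± 0.06, adjusted p = 0.348) did not pass, and the difference between partners was not tested.

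Fbp2 (gene 14120, chromosome 13, 62836884 to 62858400) averaged 78.8 CPM in DRF and 64.7 CPM in NRF, with a difference of 0.28 ± 0.08 (limma adjusted p = 0.0125). At ZT4 it had 66.3, 80.7, 78.3 and 71.0 CPM in DRF, against 31.1, 52.8, 63.3 and 51.5 CPM in NRF, without overlap. Fbp2 was not called at ZT4 alone. The other glycolytic genes called higher were Gapdh (0.22 ± 0.06), Aldoa (0.19 ± 0.07), Tpi1 (0.16 ± 0.05) and Gpi1 (0.13 ± 0.04), with adjusted p between 0.0208 and 0.0400.

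Aldoa and Tpi1 lost this call without any of 17 of the 56 libraries and Gpi1 without any of 6. The glycolytic genes that did not pass were Pfkm (0.01 ± 0.04), Pfkp (−0.04 ± 0.06), Pgam1, Eno3, Pkm (0.10 ± 0.06), Gpd1 (0.11 ± 0.07) and Gpd2 (−0.02 ± 0.09).

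In the mitochondrial set, Suclg1, the common subunit of both succinyl-CoA ligases, averaged 242 CPM in DRF and 217 CPM in NRF, a difference of 0.16 ± 0.04 (limma adjusted p = 0.00659). At ZT16 its libraries had 271, 272, 248 and 212 CPM in DRF, against 224, 206, 215 and 208 CPM in NRF, and overlapped. Cs, citrate synthase, which starts the cycle, averaged 1097 CPM in DRF and 987 CPM in NRF, a difference of 0.14 ± 0.05 (adjusted p = 0.0381).

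The NAD-linked isocitrate dehydrogenase has the subunits Idh3a, Idh3b and Idh3g. Idh3a averaged 702 CPM in DRF and 659 CPM in NRF, a difference of 0.09 ± 0.03 (limma adjusted p = 0.0391). At ZT12 it had 798, 740.1, 746 and 756 CPM in DRF, against 704, 704, 527 and 660 CPM in NRF, without overlap. Idh3a was not called at ZT12 alone. Idh3g averaged 353 CPM in DRF and 319 CPM in NRF, a difference of 0.14 ± 0.05 (adjusted p = 0.0470), while Idh3b had 0.05 ± 0.05 (0.481).

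Leaving out 1 library ended the call of Idh3g in 36 of 56 fits, of Idh3a in 14 and of Cs in 12. The other mitochondrial genes did not pass. They ran between −0.11 ± 0.06 for Dld (limma adjusted p = 0.158) and 0.17 ± 0.22 for Idh2 (0.646). Fh1, fumarase, had 0.06 ± 0.04, and Ogdh and Dlst, which with Dld form the oxoglutarate dehydrogenase complex, had 0.04 ± 0.06 and 0.07 ± 0.06. Pcx, pyruvate carboxylase, which replenishes oxaloacetate, had 0.02 ± 0.12, and its libraries ran between 84.6 and 357 CPM in DRF and between 107 and 398 CPM in NRF. At ZT8 Pcx had 201, 302, 256 and 263 CPM in DRF, against 167, 158, 190 and 169 CPM in NRF, without overlap. Yet 0 of the 17 mitochondrial genes, Pcx among them, had an unadjusted limma p under 0.05 at ZT8, against 7.27% of all genes.

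The shuttle genes of the mitochondrial set had wide ranges. Over the day Mdh1 ran between 301 and 872 CPM in DRF and between 331 and 856 CPM in NRF, and Mdh2 between 580 and 1027 CPM in DRF and between 458 and 839 CPM in NRF. Got2 ran between 422 and 912 CPM in DRF and between 362 and 763 CPM in NRF. Suclg2, the GDP-forming subunit, ran between 63.4 and 90.5 CPM in DRF and between 62.9 and 95.7 CPM in NRF, with a difference of −0.00 ± 0.04. The spread between libraries of a group, as an SD of log2(CPM + 1), was 0.11 for Idh3a and 0.83 for Idh2, the lowest and the highest of the mitochondrial set, and 0.14 for Eno1 and 0.34 for Gpd2, those of the glycolytic set.

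**Figure D5:**
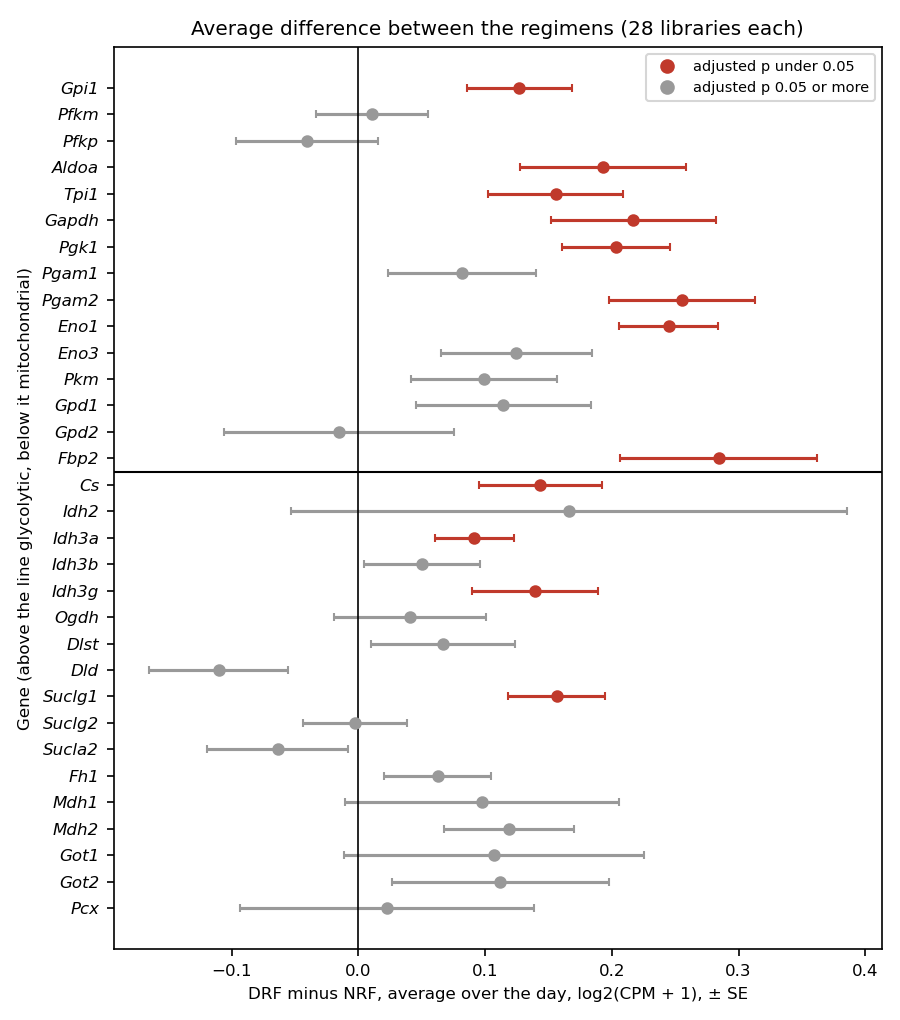
Difference DRF minus NRF of each of the 32 genes averaged over the day, on the log2(CPM + 1) scale, with its standard error (28 libraries in DRF and 28 in NRF), red where the limma adjusted p is under 0.05. The 8 red glycolytic genes lie between 0.13 and 0.28, and the 4 red mitochondrial genes between 0.09 and 0.16.

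The direction of the average depends on scale. Scaled to the total of recovered reads, the median of all genes tested moved to −0.07, 196 genes were called higher and 3303 lower, where the main scale gave 1004 and 905, and of the 32 members 6 were called higher (Aldoa, Gapdh, Pgk1, Pgam2, Eno1 and Fbp2) and Dld lower. With quantile scaling 5 were called higher (Pgk1, Pgam2, Eno1, Fbp2 and Suclg1) and Pfkm lower. Under the total-count scale 12 of 15 glycolytic genes and 9 of 17 mitochondrial genes were above 0, and on the main scale 13 and 14. Most muscle markers moved with the average as well, while Myh1 of the fast fibre list was at −0.18 (limma adjusted p = 0.620). The fast fibre mean was 0.13 higher in DRF over the day, with 1 of 9 genes called (Pvalb, 0.28, limma adjusted p = 0.0440), and the mean of 5 genes that define skeletal muscle (Myh4 and Tnnt3 are in both lists) was 0.18 higher, with 2 called (Acta1, 0.29, 0.00464, and Ckm, 0.24, 0.0240), beside 0.14 for the mean of the glycolytic genes. With the fast and slow fibre means as covariates the average was called for Pgk1, Pgam2, Eno1, Fbp2, Cs and Suclg1, and not for Gpi1, Aldoa, Tpi1, Gapdh, Idh3a and Idh3g.

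All 5 red blood cell marker genes were higher in DRF, with a mean difference of 0.51 and libraries between −0.74 and 1.88 in DRF and between −1.12 and 0.75 in NRF. With their mean as a covariate 11 glycolytic genes and 0 mitochondrial genes were called higher, against 483 of all 12025 genes called higher and 181 lower. That mean itself differed between the regimens, so this fit cannot separate it from feeding time.

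At single times, Eno1 was the 1 member called, at 3 of 7 times. It averaged 133 ± 3.78 CPM in DRF and 106 ± 10.9 CPM in NRF at ZT12 (SD, n = 4 each, limma adjusted p = 0.0452), where 3.50% of all genes were called and 2.15% were called higher in DRF. At ZT16 it averaged 153 ± 6.07 CPM in DRF and 116 ± 13.5 CPM in NRF (adjusted p = 0.0161, 10.8% of all genes called and 4.02% called higher). At ZT20 it averaged 134 ± 8.20 CPM in DRF and 102 ± 11.3 CPM in NRF (adjusted p = 0.0247, 2.96% of all genes called and 0.715% called higher). At each of these times all 4 DRF libraries were above all 4 NRF libraries.

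At ZT0, ZT4, ZT8 and ZT24 no member was called, against 1.85%, 0.973%, 0.208% and 5.56% of all genes (limma). At an unadjusted p under 0.05, ZT12 held 10 glycolytic genes, Eno1 among them and 9 of them higher in DRF, and 2 mitochondrial genes, both higher, against 22.1% of all genes. ZT16 held 5 glycolytic genes, with Eno1, all higher, and 6 mitochondrial genes, of which 4 were higher and Dld and Sucla2 lower, against 27.7% of all genes. ZT20 held 3 glycolytic genes, with Eno1, all higher, and 1 mitochondrial gene, lower, against 18.8% of all genes. ZT0, ZT4, ZT8 and ZT24 together held 4 glycolytic and 2 mitochondrial such results, where 13.0%, 11.4%, 7.27% and 22.0% of all genes were at such a p.

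The promoters of 30 of the 32 genes were listed, from 250 bases before to 50 after each start (RefSeq, GRCm38.p6). Those of 4 genes are printed over the 250 bases before the start, 3 for genes higher in DRF over the day (Pgk1, Pgam2 and Fbp2) and 1 for Dld, whose mean level in DRF was lowest at ZT20, with 169 CPM, and at ZT16, with 176 CPM. Capitals mark 2 motifs on either strand. The first is ACGTG, a core of the hypoxia response element, and the other is CCAAT, to which nuclear factor Y binds. The E-box of the clock proteins, counted separately, always holds the first motif.
Pgk1, chrX:106186850-106187099, plus strand: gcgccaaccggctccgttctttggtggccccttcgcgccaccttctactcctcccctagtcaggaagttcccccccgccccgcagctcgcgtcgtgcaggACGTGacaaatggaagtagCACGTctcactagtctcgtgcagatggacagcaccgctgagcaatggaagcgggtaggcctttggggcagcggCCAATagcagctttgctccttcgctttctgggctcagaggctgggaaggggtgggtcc
Pgam2, chr11:5803797-5804046, minus strand: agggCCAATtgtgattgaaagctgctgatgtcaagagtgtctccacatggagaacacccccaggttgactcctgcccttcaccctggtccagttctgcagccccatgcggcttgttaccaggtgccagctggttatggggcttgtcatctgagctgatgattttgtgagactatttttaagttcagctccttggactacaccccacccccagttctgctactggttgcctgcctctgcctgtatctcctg
Fbp2, chr13:62858401-62858650, minus strand: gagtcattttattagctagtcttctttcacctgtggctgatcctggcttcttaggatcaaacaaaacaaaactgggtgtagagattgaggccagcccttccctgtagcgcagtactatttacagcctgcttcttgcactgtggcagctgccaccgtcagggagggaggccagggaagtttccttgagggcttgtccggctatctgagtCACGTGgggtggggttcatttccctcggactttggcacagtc
Dld, chr12:31351472-31351721, minus strand: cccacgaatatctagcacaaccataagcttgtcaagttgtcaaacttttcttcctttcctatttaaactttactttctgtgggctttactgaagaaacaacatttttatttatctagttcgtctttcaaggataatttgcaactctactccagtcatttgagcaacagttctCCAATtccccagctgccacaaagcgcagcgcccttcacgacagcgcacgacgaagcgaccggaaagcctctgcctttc

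Over the whole windows and all listed starts of a gene, on both strands, ACGTG was found in 8 of 14 glycolytic and 4 of 16 mitochondrial genes, against 21.8% of 27025 genes. CCAAT was found in 7 of 14 and 10 of 16, against 41.1% of genes. The E-box CACGTG was found in 2 glycolytic genes (Fbp2 and Pfkm) and 2 mitochondrial genes (Ogdh and Pcx), against 8.09% of genes. TCAAGGTCA, the estrogen-related receptor element, was found in none of these windows and in 0.466% of genes. Genes with several listed starts have more windows to hold a match, and matches are descriptions of letters.

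Of 24 other genes of glycolysis, 16 were tested, with 9 called rhythmic in DRF and 6 in NRF, against 48.7% and 15.1% of all genes. A rhythm difference was called for 13.1% of all genes. The rhythm differed for Pfkfb3 and Pfkfb1, which make or break the activator fructose 2,6-bisphosphate (limma adjusted p = 1.2e-04 and 0.00159). Pfkfb3 peaked at ZT23.1 in DRF, with a peak-to-trough difference of 1.83, and at ZT4.62 in NRF with 3.09. Pfkfb1 was not called rhythmic in DRF (fitted peak ZT21.3, 0.28, limma adjusted p = 0.166) and peaked at ZT13.7 with 0.73 in NRF (adjusted p = 9.1e-05). Over the day Pgp, a phosphoglycolate phosphatase, was higher in DRF (34.8 CPM in DRF and 31.6 CPM in NRF, adjusted p = 0.00854) and Pfkfb2 lower (18.3 CPM in DRF and 20.4 CPM in NRF, adjusted p = 0.0386).

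Of 26 other genes of mitochondrial pyruvate and cycle metabolism, 25 were tested, with 7 rhythmic in DRF and 2 in NRF, against the same 48.7% and 15.1% of all genes. The rhythm differed for Idh1, the cytosolic NADP-linked isocitrate dehydrogenase (limma adjusted p = 0.00814), and for Dhtkd1, which acts on oxoadipate (adjusted p = 0.0217). Idh1 was not called rhythmic in DRF (fitted peak ZT5.78, adjusted p = 0.0698) and peaked at ZT11.3 in NRF (adjusted p = 0.000109). Dhtkd1 was also lower over the day, with 7.33 CPM in DRF and 7.83 CPM in NRF (adjusted p = 0.0324), and none of the 25 was called higher, against 8.35% of all genes.

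In the authors' deposited table of rhythm tests, made on the deposited values, 5 of the 15 glycolytic genes (Pfkp, Tpi1, Pgam2, Eno1 and Gpd1) had an adjusted p under 0.05 in DRF and 1 (Pfkp) in NRF. In the authors' deposited table none of the 17 mitochondrial genes did in either regimen, against 15.9% of all 16119 genes listed in DRF and 7.16% in NRF. The authors' deposited table puts the DRF peak of Tpi1 at ZT14.6, of Pgam2 at ZT14.9, of Gpd1 at ZT14.8 and of Eno1 at ZT15.9.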

How the data were processed

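Polyadenylated RNA was read on a BGISEQ-500, with no strand step named in the labels' protocols, so antisense reads cannot be told apart. Tools named in the submitters' processing notes are RSEM, Bowtie2 and HISAT2, with the builds mm10 and GRCm38.p6; which did what is not stated there. Values that the authors deposited under the heading TPM are a score: a logarithm of estimated counts per 1000000 of a library size, divided by gene length. Inverting it gave reads for 17438 of 19072 genes, tested on simulated data. The authors' library sizes were 0.854 to 1.21 times the recovered totals. Reads were decimal, so shared with other genes, for Gapdh, Pfkp, Ogdh, Eno1, Pfkm and Gpi1 in 55, 43, 24, 12, 9 and 3 of 56 libraries, and these values are uncertain. The deposited rhythm tables hold p-values, peak phases in hours, which is another unit, and relative amplitudes as a ratio, by the authors.

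log2(CPM + 1) of 12025 genes (mean CPM 1 or more), all 32 members among them, was fitted with limma 3.58.1 (trend) in R 4.3.3 over all 56 libraries, with Benjamini-Hochberg adjustment over all genes and a threshold of 0.05. Rhythm is a 24 h cosine and sine per regimen. The average over the day counts ZT0 and ZT24 as 1 time. The labels do not say whether a library is 1 animal, so p-values measure the spread between libraries, and they name no batch. Of same-group libraries, none agreed within sampling noise. Members and lists were chosen with earlier results of these data known. Values by library are given for members with the lowest p per test and set and for related pairs, others by level or range. Where libraries of both regimens are said not to overlap, no share over all genes is given. Other scales, filters, weights, covariates and left-out libraries were tried.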

Additional observations from a re-analysis of the deposited data

Results flagged for a closer look

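Over 490 groups of 4 libraries (32 genes and 3 set means in 14 groups), 33 had a library far from the other 3, which is 6.73%, where chance gives about 1 in 20. No explanation was tested. DRF ZT20 replicate 1 was high for Got1 (692 CPM, others 237 to 309), Idh2 (526, others 86.1 to 158), Mdh1 (847, others 330 to 418), Mdh2 (1027, others 632 to 682) and Dlst (412, others 264 to 286), and low for Sucla2 (232, others 387 to 399). Its slow fibre mean was 1.65, where the others had −4.68, −1.49 and −0.17. This library also had the lowest library weight of all, 0.137, and the steepest trend of levels with gene length, −0.171.

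DRF ZT4 replicate 1 was low for Aldoa (14346 CPM, others 19277 to 20213), Gapdh (9892, others 14230 to 15105) and Pkm (3001, others 3875 to 3973), and for the glycolytic mean (−0.18, others 0.06 to 0.07). DRF ZT24 replicate 2 was low for Got1 (335, others 577 to 610), Got2 (593, others 808 to 842) and Ogdh (1009, others 1261 to 1297). DRF ZT16 replicate 2 was high for Idh3a (831, others 682 to 703) and Ogdh (1577, others 1032 to 1115). DRF ZT8 replicate 2 was low for Cs (894, others 1031 to 1059) and for the mitochondrial mean (−0.35, others 0.05 to 0.13), and DRF ZT20 replicate 2 was high for Gapdh (19715, others 16887 to 17291).

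NRF ZT4 replicate 3 was low for Cs (899 CPM, others 1042 to 1050.0), Dlst (258, others 324 to 334), Got2 (431, others 669 to 713) and Idh3g (294, others 337 to 346). NRF ZT24 replicate 2 was low for Eno3 (4248, others 5380 to 5504), Gapdh (10618, others 13743 to 14382) and the glycolytic minus mitochondrial mean (−0.41, others −0.07 to −0.04), and NRF ZT24 replicate 4 was low for Suclg1 (217, others 232 to 235). NRF ZT16 replicate 1 was high for Mdh2 (763, others 613 to 637) and Ogdh (1249.7, others 872 to 894) and low for Tpi1 (1748, others 2247 to 2344). NRF ZT20 replicate 2 was high for Fh1 (246, others 202 to 207), and NRF ZT20 replicate 4 for Gpi1 (1364, others 1124 to 1149). NRF ZT12 replicate 4 was high for Tpi1 (2399.6, others 1795 to 1855), and NRF ZT0 replicate 2 was low for the glycolytic mean (−0.39, others −0.18 to −0.16).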

How the results depend on the processing

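Counts of members called were 15 (DRF rhythm), 1 (NRF rhythm), 0 (rhythm difference), 12 (average over the day) and 3 (single times). The DRF rhythm count was 8 on the log2 of the deposited value plus 1 and 8 with both fibre means as covariates. The NRF count was 2 with quantile scaling and with library weights, and 0 with a mean CPM of at least 10 (Pfkp is then not tested), without ZT0 and without the 8 libraries low in slow fibre transcripts. The rhythm difference held 1 with the fibre covariates (Fbp2, adjusted p = 0.0372). The average held 7 with total-count scaling, 6 with quantile scaling, with no filter, without ZT24 and with the fibre covariates, and 5 on the deposited value. Single times held 17 with library weights, 12 with the slow fibre mean as a covariate, 5 with the red blood cell covariate and 1 without the 8 libraries. The covariate of the slow fibre mean and the omission of those 8 libraries were chosen after seeing the data. Among called values 1 direction reversed: Pfkm over the day was −0.12 with quantile scaling (adjusted p = 0.0216). Averages that were called in neither fit also fell below 0, with total-count scaling those of Pfkm, Idh3b, Ogdh, Dlst, Fh1 and Pcx and with quantile scaling those of Pkm, Ogdh and Pcx. The cause was not tested in these cases.

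Leaving out 1 library gave 12 to 16, 1 to 2, 0 to 2, 6 to 13 and 2 to 8 in that order. The average fell to 7 without DRF ZT4 replicate 2, DRF ZT8 replicate 1 or NRF ZT4 replicate 1, and to 6 without DRF ZT12 replicate 1, NRF ZT12 replicate 3 or NRF ZT20 replicate 3. Single times held 6 without DRF ZT12 replicate 2 or NRF ZT20 replicate 4, 7 without DRF ZT16 replicate 4, 5 without DRF ZT20 replicate 1 and 8 without NRF ZT12 replicate 4. NRF rhythm held 2 (Fbp2 beside Pfkp) without DRF ZT16 replicate 2, NRF ZT4 replicate 3, NRF ZT16 replicate 1 or NRF ZT24 replicate 4. Of all genes, the average was called for 3499 with total-count scaling, 1030 with the length trend removed, 1058 without ZT24, 1194 with the fibre covariates, 664 with the red blood cell covariate and 1174 without the 8 libraries, against 1909. The NRF rhythm was called for 1153 with a mean CPM of at least 10, against 1820. The rhythm difference was called for 2605 with library weights, 1017 without ZT24, 2610 with the fibre covariates and 2375 with the slow fibre covariate, against 1578. Single times gave 7425 with library weights, 1804 with the red blood cell covariate, 1763 without the 8 libraries and 5127 with the slow fibre covariate, against 3103. Over all times, samples of the same replicate number had a mean correlation of 0.003, against 0.002 for other numbers, with 13 of 28 over 0.1 and 6 of 28 best with their own number. ZT4 stood apart, with 0.175 against −0.059, 4 of 4 over 0.1 and 3 of 4 best with their own number, and ZT16 had 0.141 with 3 of 4 over 0.1. The numbers were not taken as pairs, and with the replicate block the counts were 15, 1, 0, 12 and 3. Tpi1, Eno1, Gpd1 and Dld kept the DRF rhythm call in each of 18 other settings and without any 1 library, as did Pfkp in the 17 that tested it, though with the fibre covariates the peak-to-trough difference was 0.16 for Tpi1 and 0.19 for Gpd1, against 0.46 and 0.62 without them. Depth is no limit for most members; Pfkp and Pgam1, with means of 9.42 and 21.6 CPM, are the lowest.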
